A study of Mus musculus with 18 samples.

Results

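The transcriptome described here is that of motor neurons from non-transgenic control mice, measured on the 9 arrays titled as controls out of 18 arrays in the series. The other 9 arrays carry motor neurons of littermates transgenic for G93A, a mutant form of human SOD1 used to model familial motor neuron disease. Motor neurons were cut by laser from 10 µm frozen sections of lumbar cord stained with toluidine blue, 1000 per animal, and each animal gave 1 array. Both genotypes were sampled at 60, 90 and 120 days of age, with 3 animals in each of 6 groups. Neither the transgene's promoter nor the mouse strain is stated in the labels. The labels give 1 genotype, age and animal number per array and nothing on litters. The p-values below set differences of group means against the spread between animals within the 6 groups. The number of arrays limits the precision of every value.

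Each value is a signal, the brightness of a set of short probes for 1 transcript, scaled per array. The 12393 genes with a probe set of their own were each represented by the probe set of highest mean log2 signal over the control arrays, and were ranked by that mean and by the standard deviation (SD) between the 9 arrays. Probe sets bind their targets with different strength, so a rank orders signals and not amounts of RNA. A gene was read as clearly present where its signal lay above the array's own median on all 9 control arrays, which 3475 genes did (28% of 12393). In tissue of this kind, fewer cells of a type and less RNA per cell cannot be told apart.

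Spinal motor neurons are large cholinergic cells whose axons leave the cord and drive skeletal muscle. Their long, thick axons are filled with neurofilaments, built from a light, a medium and a heavy chain together with the related proteins internexin and peripherin, and peripherin marks neurons that project to the periphery. Acetylcholine is made by choline acetyltransferase, loaded into vesicles by the transporter Slc18a3 and recycled through the choline transporter Slc5a7. The transcription factors Isl1, Isl2 and Mnx1 set motor neuron identity in development. Glial cells and their processes lie against the cell body, and oligodendrocytes carry the RNA of myelin basic protein into those processes.

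The start regions of 4 genes are shown as examples from 2 gene lists. Prph (peripherin) and Uts2 (urotensin 2) are of the motor neuron list. Cox6a1 (a subunit of cytochrome c oxidase) and Atp5h (a subunit of ATP synthase) are of the oxidative phosphorylation list. All 4 hold the motif marked in them, which most windows of their lists do not. Sequences are from RefSeq, build GRCm38.p6, and run 5′ to 3′ from 250 bases before to 50 bases after the annotated start. The windows are chr15:99054924-99055223 (+ strand) for Prph, chr4:150996847-150997146 (+ strand) for Uts2, chr5:115348909-115349208 (- strand) for Cox6a1 and chr11:115419870-115420169 (- strand) for Atp5h. Capitals mark the TATA box letters TATAAA in Prph and Uts2, and in Cox6a1 and Atp5h the NRF1 motif (GCGC, any base, TGCGC). NRF1 is a known regulator of nuclear genes for mitochondrial proteins. Each was searched on both strands, and a match of the NRF1 motif on the other strand reads GCGCA, any base, GCGC.
Prph: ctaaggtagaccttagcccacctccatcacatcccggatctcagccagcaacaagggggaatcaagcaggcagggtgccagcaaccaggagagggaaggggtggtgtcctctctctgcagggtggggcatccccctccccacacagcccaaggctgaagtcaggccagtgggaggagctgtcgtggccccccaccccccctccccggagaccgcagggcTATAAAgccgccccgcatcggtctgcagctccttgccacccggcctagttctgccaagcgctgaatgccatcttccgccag
Uts2: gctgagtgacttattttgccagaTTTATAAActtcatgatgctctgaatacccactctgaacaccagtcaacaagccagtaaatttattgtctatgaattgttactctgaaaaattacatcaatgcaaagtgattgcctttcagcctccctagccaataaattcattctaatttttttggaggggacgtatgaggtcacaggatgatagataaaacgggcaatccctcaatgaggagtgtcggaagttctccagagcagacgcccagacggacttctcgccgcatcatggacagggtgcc
Cox6a1: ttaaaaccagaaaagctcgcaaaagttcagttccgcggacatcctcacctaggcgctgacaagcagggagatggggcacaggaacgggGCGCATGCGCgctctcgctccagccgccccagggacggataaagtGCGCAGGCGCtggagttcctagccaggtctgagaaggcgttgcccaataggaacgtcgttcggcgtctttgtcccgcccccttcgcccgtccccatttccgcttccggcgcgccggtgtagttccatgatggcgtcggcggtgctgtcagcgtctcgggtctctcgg
Atp5h: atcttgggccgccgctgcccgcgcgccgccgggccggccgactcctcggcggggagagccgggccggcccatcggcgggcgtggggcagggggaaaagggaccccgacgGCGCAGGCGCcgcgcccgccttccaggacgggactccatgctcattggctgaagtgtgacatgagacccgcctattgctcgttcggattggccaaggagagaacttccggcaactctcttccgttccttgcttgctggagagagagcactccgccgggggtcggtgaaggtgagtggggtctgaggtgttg

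In Prph the TATA letters began at position -31 from the start, while in Uts2 2 overlapping matches lay further upstream, the first at -227. Cox6a1 held 2 NRF1 motifs, the first at -162 and the second on the other strand. Atp5h held 1, on the other strand, at -141. Of the 12393 genes, 9887 had a window in the table, with 12566 windows in all. TATAAA was found in 4 of 15 windows of the motor neuron list (26.7%), against 9.81% of all windows. The NRF1 motif was found in 17 of 75 windows of the oxidative phosphorylation list (22.7%), in 12.7% of the windows of the 100 genes of highest signal, and in 7.96% of all windows. The share was 9.09% for the 25 highest genes and 11.6% for the 3475 genes above the median on all 9 control arrays. Median GC content was 62.0% in the windows of the 100 genes, 61.3% in those of the 3475 and 59.0% in all windows. A match describes the letters of the window and not a bound site, and alternative starts of a gene each add a window.

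Control arrays of the same age correlated at 0.702 to 0.811 (median 0.786, 9 pairs) and control arrays of different ages at 0.643 to 0.842 (median 0.727, 27 pairs) over all genes, as a description only. The array of control replicate 2 at 90 days stood apart. Its 25 highest genes averaged 12.60 on the log2 scale, against 13.28 to 14.09 on the other control arrays. The hybridization controls, labelled foreign transcripts added to each sample, averaged 8.40 on this array and 10.29 to 11.99 on the other 8. The log2 difference between the 3′ and 5′ probe sets of Gapdh, a measure of how far the RNA is shortened, lay between 3.00 and 3.66 for age 60 days, between 2.47 and 4.18 for 90 days, and between 4.22 and 4.73 for 120 days.

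**Figure D1:**
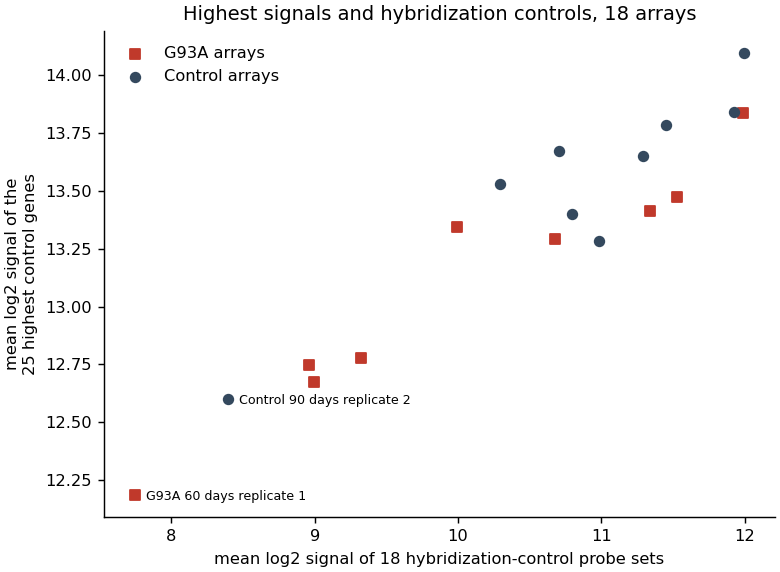
Mean log2 signal of the 25 genes that ranked highest in controls against the mean log2 signal of 18 hybridization-control probe sets, 1 point per array, with G93A arrays as squares and control arrays as circles. The 2 arrays lowest on both axes are G93A replicate 1 at 60 days (7.75 and 12.19) and control replicate 2 at 90 days (8.40 and 12.60).

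The highest signals on control arrays belonged to energy metabolism, the cytoskeleton, a chaperone and the synapse. The 25 genes at the top had mean log2 signals of 13.08 to 14.33 and together took 6.88% to 15.6% of the summed signal of a control array. Neighbours in this order could not be told apart: all 24 neighbouring pairs differed by less than 1 SD of the paired difference, and in 0 of these pairs was the higher gene above the lower on all 9 arrays. Genes further apart could be ordered, as Hspa8 ranked 1 to 3 on each control array and Slc25a4 15 to 41. Of the 25, 24 stayed among the first 100 genes on every control array, and the lowest rank of any on any array was 112. They were chosen on the mean of these same arrays, which favours high ranks on each. Their median SD was 0.59, beside 0.54 for the 3475 genes above the median on all 9 arrays. On the G93A arrays, which the ranking did not use, 22 of the 25 were again among the first 25, and the lowest rank by the G93A mean was 32.

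Hspa8, the constitutive cytosolic HSP70 chaperone, had the highest mean, 14.33 ± 0.64 (SD, n = 9). Its signals were 24254, 25885 and 28116 at 60 days, 17009, 8241 and 18024 at 90 days, then 15212, 36487 and 27055 at 120 days. Nefl, the light neurofilament chain and a motor neuron marker, ranked 3 with 14.18 ± 0.54. Its signals were 22030, 25382 and 17125 at 60 days, 24119, 9264 and 24856 at 90 days, then 13680, 26846 and 12990 at 120 days. For Nefl the 3 ages overlapped. For Hspa8 the arrays at 60 days all lay above those at 90 days, while those at 120 days overlapped both. The lowest value of each gene was from control replicate 2 at 90 days.

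Of the other genes at the top, Ppp2r1a (13.91 ± 0.60), a scaffold subunit of the phosphatase PP2A, Cfl1 (13.86 ± 0.67), the actin-severing protein cofilin, and Tmsb10 (13.80 ± 0.70), which binds actin monomers, came next. Stmn3 (13.69 ± 0.45), a neuronal regulator of microtubules, and the α-tubulins Tuba4a (13.44 ± 0.51) and Tuba1a (13.40 ± 0.88) followed. Tuba1a had the largest SD among the 25: its signals at 60 days were 6455, 14128 and 3470, against 5735 to 17249 at 90 days and 13271 to 21482 at 120 days. Cplx1 (13.30 ± 0.49), complexin, which controls vesicle fusion, and Snap47 (13.52 ± 0.42), a SNAP-25 relative, are of the synaptic machinery. Slc25a4, the mitochondrial ADP/ATP carrier, had the smallest SD of the 25 (13.16 ± 0.37). Just inside the limit of 25 lay Pabpn1 (13.08) and Ndrg4 (13.08), and just outside lay Lgals1 (13.02) and Selenow (13.02).

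**Figure D2:**
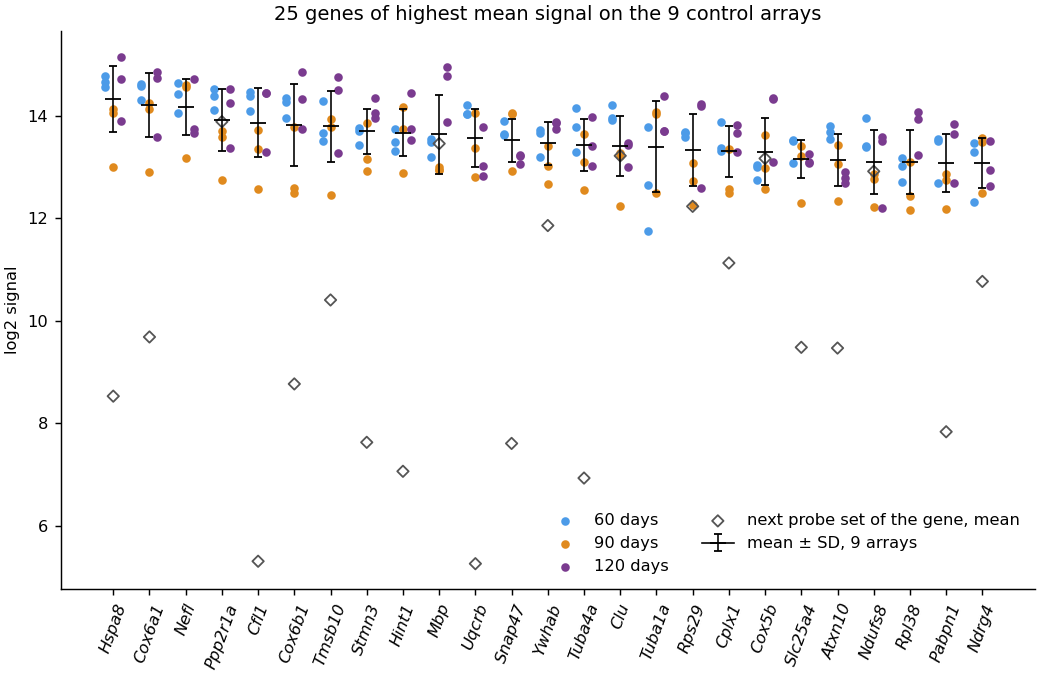
Log2 signal of the 25 genes of highest mean signal on the 9 control arrays, in rank order. Points are arrays coloured by age, bars are mean ± SD over 9 arrays, and open diamonds are the mean of the next-highest probe set of the same gene, which for Hspa8 is 8.53 against 14.33 and for Cfl1 5.31 against 13.86.

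Oxidative phosphorylation, the respiratory chain and ATP synthase of mitochondria, was the largest functional group at the top. It gave 5 of the 25 highest genes and 21 of the highest 100. The 5 were Cox6a1 (14.22 ± 0.63), Cox6b1 (13.82 ± 0.80) and Cox5b (13.30 ± 0.65) of cytochrome c oxidase, Uqcrb (13.57 ± 0.57) of the cytochrome bc1 complex and Ndufs8 (13.10 ± 0.62) of complex I. Cox6a1, whose start region with 2 NRF1 motifs is printed above, had signals of 20419, 24669 and 25225 at 60 days, 19349, 7639 and 17843 at 90 days, then 12231, 27307 and 29450 at 120 days. Its arrays at 60 days also all lay above those at 90 days, and those at 120 days overlapped both. Of 85 measured members, 65 lay above the array median on all 9 control arrays (76.5%, where 28% of all genes did), and 56 were among the highest 10% of genes. Their summed signal was 6.35% to 9.47% of that of a control array.

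Other groups of the general machinery were also high, beside the 28% of all genes above the median on all 9 arrays. Of 44 cytosolic ribosomal protein genes, 33 lay above the median on all 9 arrays, led by Rps29 (13.33 ± 0.70) and Rpl38 (13.09 ± 0.63). Glycolysis had 13 of 16, led by Pgk1 (13.01 ± 0.34), phosphoglycerate kinase, and Ldhb (13.00 ± 0.48), the lactate dehydrogenase chain of oxidative tissues. Of the ubiquitin and proteasome list 23 of 42 did, led by the proteasome ATPase Psmc2 (12.34 ± 0.39), and of the chaperone list 31 of 66. Besides Hspa8, the chaperones were led by Cct3 (12.29 ± 0.32), a subunit of the chaperonin that folds actin and tubulin, and Hsp90aa1 (10.95 ± 0.75).

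Genes for transport along the axon and for the synapse lay above the median on all arrays in similar proportions, where 28% of all genes did. Of 26 motor proteins and adaptors, 20 lay above the median on all 9 control arrays, led by Dctn1 (11.42 ± 0.38), the large dynactin subunit, and Dynll1 (11.16 ± 0.43), a dynein light chain. Of 24 synaptic vesicle and SNARE genes, 16 did, led by Cplx1 and by Syt11 (11.93 ± 0.57). Of 12 calcium-binding proteins 10 did, among them Calr (10.22 ± 0.17), calreticulin of the endoplasmic reticulum, and Vsnl1 (9.69 ± 0.96), a neuronal calcium sensor.

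The 5 neurofilament and peripherin genes all lay above the array median on all 9 control arrays, where 28% of all genes did. Below Nefl, Nefh, the heavy chain, averaged 10.52 ± 0.68 (rank 245), with signals of 1357, 1324 and 916 at 60 days, 2922, 1882 and 1309 at 90 days, then 3126, 1044 and 843 at 120 days. Nefm, the medium chain, averaged 9.48 ± 1.37, with signals of 506, 899 and 364 at 60 days, 750.0, 1211 and 2681 at 90 days, then 2426, 335 and 148 at 120 days. For both chains the ages overlapped, and at 120 days control replicate 1 was well above the other 2 arrays. Ina, α-internexin, averaged 9.34 ± 0.74.

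Prph averaged 7.98 ± 0.77 (rank 1414 of 12393, percentile 88.6). Its signals were 165, 147 and 162 at 60 days, 399.8, 309 and 468 at 90 days, then 590.4, 176 and 181 at 120 days. The 3 arrays at 60 days did not overlap those at 90 days, and at 120 days 1 of 3 arrays was high. The age test below did not call Prph (limma adjusted p = 0.132). Of the 4 probe sets named Prph, the one shown had the highest mean, and 3 lay above the median on all 9 arrays. Isl1 was low, 5.70 ± 0.80: its signals were 15.1 to 55.5 at 60 days, 42.6 to 85.3 at 90 days, and 60.1 to 85.0 on the 3 arrays of 120 days, above the array median on 5 of 9 arrays.

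Over the whole motor neuron list, 8 of 17 measured genes lay above the median on all 9 control arrays, at 47.1% against 28% of all genes. The 8 were Nefl, Nefh, Nefm, Prph, Isl2 (7.40 ± 0.48), Calcb (10.23 ± 0.90), the neuropeptide β-CGRP, Chodl (8.38 ± 1.11), a marker of fast motor neurons, and Uts2 (7.87 ± 0.64), a peptide of cholinergic spinal neurons. The cholinergic transporters were not among them. Slc18a3 lay above the median on 0 of 9 arrays (4.67 ± 0.91, signals 8.30 to 53.2) and Slc5a7 on 2 of 9 (4.36 ± 1.70, signals 2.40 to 77.1). Mmp9, a matrix protease of fast motor neurons, did on 7 arrays, Mnx1 on 6 and the growth factor receptor Ret on 7. The neurofilament part of the label was thus clear in these arrays, while these probe sets gave the cholinergic transporters low signals. Chat was not analysed here.

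Genes common to all neurons were present in higher proportion, with 16 of 23 above the median on all 9 arrays. After Stmn3 the highest were Thy1 (10.50 ± 0.55), a neuronal surface protein, Vsnl1, Snap25 (9.63 ± 0.89) of the vesicle fusion complex, and Eno2 (9.55 ± 1.31), neuronal enolase. Of the markers of other spinal neurons, 4 of 16 were above the median on all arrays (25%), near the 28% of all genes. The 4 were Calb2 (8.16 ± 0.48), Calb1 (7.71 ± 0.64), Pvalb (7.15 ± 0.32) and Gad2 (6.45 ± 0.54). The first 3 are calcium-binding proteins and Gad2 makes GABA. The glycine transporter Slc6a5 was above it on 6 of 9 arrays (6.07 ± 0.74) and Gad1 on 7 of 9 (6.29 ± 1.59, signals 12.3 to 599).

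Glial genes were among the highest signals of these motor neuron samples. Mbp, myelin basic protein, ranked 10 with 13.64 ± 0.77, and Clu, clusterin, which astrocytes express strongly and many neurons also make, ranked 15 with 13.42 ± 0.59. Mbp had signals of 11437, 11985 and 9366 at 60 days, 7882, 8150 and 7914 at 90 days, then 15084, 28107 and 31700 at 120 days, so that the 3 ages did not overlap. Of 13 measured oligodendrocyte genes 8 lay above the median on all 9 control arrays (61.5%, where 28% of all genes did). Among them was Cnp (10.79 ± 0.97), an enzyme of myelin. Olig2, the lineage transcription factor, did so on 1 array (4.66 ± 1.18) and Mog, of the outer myelin surface, on 4 (5.06 ± 1.36).

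Of 18 astrocyte genes 9 lay above the median on all arrays (50%, where 28% of all genes did). Next to Clu they included Aldoc (11.24 ± 0.69), the brain aldolase, Gja1 (10.24 ± 0.64), connexin 43, Glul (9.57 ± 0.25), glutamine synthetase, S100b (9.32 ± 0.80) and the water channel Aqp4 (8.23 ± 0.66, signals 160 to 540). Gfap, the intermediate filament of astrocytes, averaged 6.29 ± 0.80 with signals of 25.1 to 199 and was above the median on 8 of 9 arrays. Aldh1l1, often used to define astrocytes, did so on 2 of 9 arrays (5.01 ± 1.31).

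Microglial genes gave lower counts. Of 19, 4 lay above the median on all arrays (21.1%), near the 28% of all genes, and 12 lay above it on 0 to 4. The 4 were Csf1r (10.76 ± 0.96), the receptor that microglia depend on, C1qb (8.85 ± 0.87) of complement, Ctss (8.54 ± 1.00), a lysosomal protease, and Laptm5 (8.53 ± 1.11). The probe sets of Csf1r did not share its rank: the other 2 averaged 7.48 and 5.96. Aif1 was above the median on 1 array (4.04 ± 1.56) and Tmem119 on 0 arrays (3.47 ± 0.95). The summed signal of the 19 genes was 1855 to 8582 on control arrays.

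Of 13 endothelial genes 1 lay above the median on all arrays (7.69%, where 28% of all genes did). It was Slc2a1 (10.60 ± 0.46), the glucose transporter of the blood-brain barrier, which astrocytes also express. Cldn5, of endothelial tight junctions, lay above the median on 4 arrays (5.45 ± 1.75), Tie1 on 0 (2.07 ± 1.81). Of 9 pericyte and fibroblast genes 4 lay above it on all arrays (44.4%), led by Col1a2 (8.63 ± 1.16). With the gene represented by the mean over its probe sets this count was 0, and on the 9 G93A arrays it was 7. Neither the 4 red blood cell genes nor the 3 ependymal genes had a member above the median on all arrays, and the α-globin Hba-a2 was above it on 0 arrays. The β-globin Hbb-b2 was higher. Its signals were 173, 190 and 169 at 60 days, 132, 55.3 and 96.2 at 90 days, then 58.3, 30.2 and 48.7 at 120 days. The medians of the control arrays ran between 37.05 and 64.0.

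**Figure D3:**
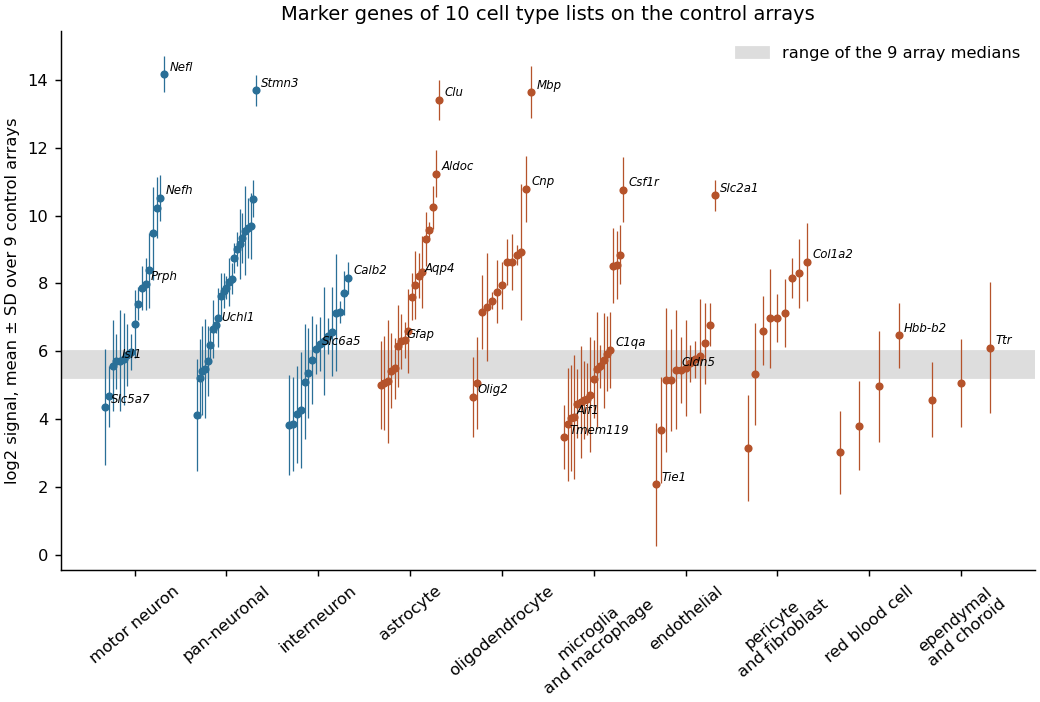
Log2 signal of every measured marker gene in 10 cell type lists, as mean ± SD over the 9 control arrays, with neuronal lists in blue and other lists in brown and the genes of each list in rising order. The grey band is the range of the 9 array medians, and signals of different genes show rank of brightness and not amounts of RNA.

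The order at the top depended on which probe set stood for a gene. Of the 25 highest genes, 13 were represented by a probe set of the _x_at kind (52%), whose probes can bind other transcripts, against 4.84% of all genes. Another 9 were of the _a_at kind (shared by transcripts of the same gene), 2 of the _s_at kind (shared by several genes) and 1, Nefl, of the plain kind. Of the 25, 22 had a second probe set, whose mean lay a median of 3.68 below on the log2 scale, and 15 had a gap of over 2. Hspa8 averaged 14.33 on its highest probe set and 8.53 on the next, and Hint1, a nucleotide-binding protein, 13.67 and 7.06. Clu and Mbp had more than 1 bright probe set: 3 of the 4 for Clu averaged 12.77 to 13.42 and 4 of the 8 for Mbp 12.76 to 13.64.

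With _x_at and _s_at probe sets used only where a gene had no other, 14 of the 25 genes stayed among the first 25, and with the mean over a gene's probe sets 8 did. Over plain probe sets alone the first 25 shared 2 genes with the main order, Nefl and Cplx1. That order ran Nefl (14.18), Ints6 (12.13), Rpsa (11.94), the mitochondrial ND5 (11.92) and Pcp4 (11.46), and also held Csf1r (10.76), Cyc1 (10.71), Nefh (10.52) and Thy1 (10.50). Nefl was therefore the highest named gene on plain probe sets by more than 2 on the log2 scale.

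The spread between control arrays was smallest at high signals. With genes cut into 10 equal bins by level, the median SD was 1.33 in the lowest bin, 0.56 in bin 9 and 0.58 in the highest. Low signals therefore carry more error, and a spread list was drawn only from the 3475 genes above the median on all 9 arrays, whose median SD was 0.54.

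The 20 genes of smallest spread had SDs of 0.149 to 0.204 and mean levels of 6.19 to 10.42. Mrps23, a protein of the mitochondrial ribosome, had the smallest SD: its signals were 150, 157 and 152 at 60 days, 153, 181 and 124 at 90 days, then 171, 147 and 155 at 120 days. Tmem147 (0.158), a membrane protein of the endoplasmic reticulum, had 315, 248 and 256 at 60 days, 280, 315 and 276 at 90 days, then 227, 294 and 262 at 120 days. Within each gene the ages overlapped. The others included Uqcrc1 (0.159) of the cytochrome bc1 complex, Tubb5 (0.164), a β-tubulin, Calr (0.165), the splicing-associated Dnajc8 (0.178), Mrpl3 (0.177) of the mitochondrial ribosome, Cpsf3 (0.183), the nuclease of mRNA 3′ end formation, and Gphn (0.187), gephyrin, which anchors inhibitory receptors. Dnajc8 (10.42) and Calr (10.22) had the highest levels of the 20. Just inside the limit lay Snx1 (0.204) and just outside lay Gstm1 (0.206) and Hddc2 (0.207).

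**Figure D4:**
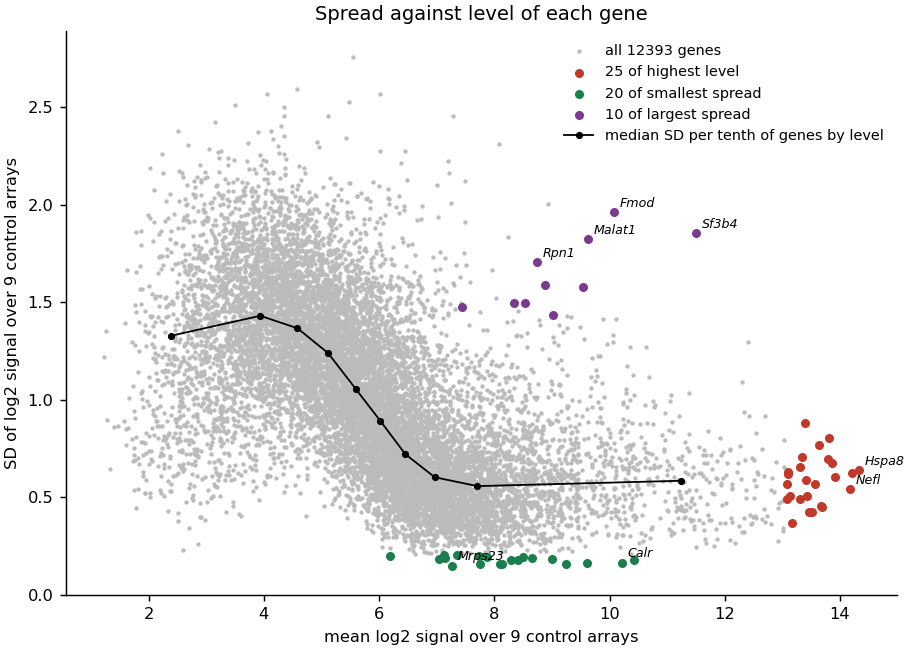
SD against mean of the log2 signal over the 9 control arrays, 1 grey point per gene for 12393 genes, with the 25 genes of highest level coloured, and the 20 of smallest and 10 of largest spread among genes above the median on all 9 arrays. The black line joins the median SD of 10 equal bins of genes by level, which is 1.33 at the lowest and 0.58 at the highest.

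The smallest spreads were partly a property of the arrays they were chosen on. On the 9 G93A arrays the 20 genes had a median SD of 0.405, against 0.514 for the 3475 genes. On those arrays 7 of the 20 were among the 10% of smallest spread and 16 of 20 had an SD below the median. Gphn had an SD of 1.45 in G93A and 0.187 in controls. The list also changed with the scaling: 10 of the 20 genes stayed among the first 20 under quantile normalization, 5 when the SD was taken within ages, 0 when each array was centred on its median, and 0 stood among the first 20 on G93A arrays.

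A broader list was followed in the same way. Of the 347 genes that formed the 10% of smallest spread, 227 (65.4%) were also in that 10% under quantile normalization, 183 (52.7%) within ages, 139 (40.1%) with arrays centred on their median and 78 (22.5%) on the G93A arrays. In all 5 measures of spread in controls 54 genes were in the 10% of smallest spread, and 10 of them also were on G93A arrays: Tmem147, Dxo, Tvp23a, Ndufa12, Slc25a11, Rasgrp2, Ube3c, Rdh13, Sbds and Wdr5. These 10 were chosen after their values were seen. Ndufa12, a complex I subunit, had the highest level of the 10: its signals were 3083 to 5147 in G93A and 3793 to 6127 in controls.

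Genes often used to normalise expression differed widely in spread. Of 19 measured, 12 lay above the median on all 9 arrays, where 28% of all genes did. Among these 12, Cyc1 (cytochrome c1) had an SD of 0.29, Pgk1 of 0.34 and Ywhae of 0.44, while Hprt had 0.95, the ribosomal protein Rpl13a 0.94, Eef1a1 0.90 and Actb, β-actin, 1.06. The signals of Cyc1 were 1880, 1688 and 1996 at 60 days, 1321, 1485 and 1323 at 90 days, then 1393, 2132 and 2130 at 120 days. Those of Actb were 1569, 1924 and 2476 at 60 days, 1473, 691 and 3608 at 90 days, then 313, 1020 and 884 at 120 days. This probe set of Actb thus spanned more than 10-fold between control arrays where Cyc1 stayed within 2-fold. A second Actb probe set of similar level (9.99) had an SD of 0.63. Gapdh is held only by control probe sets and was not ranked.

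The 10 genes of largest spread among the 3475 had SDs of 1.43 to 1.96. In 4 of them no age stood apart from both others: Fmod, fibromodulin of the extracellular matrix, Malat1, a long non-coding RNA of the nucleus, Aplnr, the apelin receptor, and Gpm6b, a neuronal and glial membrane protein, whose arrays at 120 days nevertheless all lay above those at 60 days. Fmod had the largest SD (1.96), with 1632, 401 and 1194 at 60 days, 380, 989 and 177 at 90 days, then 546, 6581 and 11316 at 120 days, so that 2 arrays at 120 days stood far above the other 7. Sf3b4 (1.85), a splicing factor subunit, had 2479, 4409 and 19689 at 60 days, 1496, 19456 and 3607 at 90 days, then 413, 1435 and 1101 at 120 days. Its second probe set, of the plain kind, had an SD of 0.23, so the spread belonged to the _x_at probe set alone. In Sf3b4 and in Snx6, a sorting nexin, the arrays at 120 days were the lowest. Rpn1, a subunit of the enzyme that adds N-linked sugars, and Ndrg1, a stress-responsive protein, were lowest at 60 days and highest at 120 days. Oga, which removes sugar from proteins, and Cpe, which processes neuropeptides, were lowest at 60 days.

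Since the ranking pooled 3 ages, a test asked which transcripts differed with age among the controls. By limma's F test over 3 ages, 903 of 16566 probe sets differed at an adjusted p under 0.05 (5.45%), and 3816 did at an unadjusted p under 0.05. On the probe set that stands for each gene, 545 of 10009 genes passed. In simulated data the age test recovered 6% of changes of 1 on the log2 scale, 64% of changes of 2 and 96% of changes of 3, so small age changes were mostly out of reach. The 3′ to 5′ Gapdh difference moved with age in the same arrays, as given above, and with it as a covariate 329 probe sets passed. With the 9 control arrays alone 299 passed, without the trend in the moderation 298, and without control replicate 3 at 60 days 490.

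The 5 genes of smallest p were Rpn1, Mkrn1, a ubiquitin ligase, Ndrg1, Selenoh, a selenoprotein, and Etnk1, an enzyme of phosphatidylethanolamine synthesis. All 5 were lowest at 60 days. Rpn1 had 131, 112 and 94.7 at 60 days, 459.8, 603 and 313 at 90 days, then 2380.0, 1472 and 1180 at 120 days. The 3 ages did not overlap, and the log2 difference of 120 minus 60 days was 3.84 ± 0.34 (SE, limma adjusted p = 3.13e-06). The probe set shown is of the _x_at kind. Of the other probe sets of Rpn1, 2 differed by 3.47 and 3.64, and the differences of the rest are not given here. On the G93A arrays Rpn1 had 727, 513 and 377 at 60 days, above each control of that age, and 431, 889 and 569 at 120 days, below each control of that age. Whether the age difference itself differed between the genotypes was not tested. Ndrg1 had 183, 170 and 136 at 60 days, 597, 688 and 424 at 90 days, then 1117, 1726 and 1840 at 120 days, with a difference of 3.24 ± 0.34. Its 3 other tested probe sets differed by 0.99, -0.98 and 1.84 and did not pass.

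Counted over genes, 5.45% of 10009 passed the age test and 23.3% had an unadjusted p under 0.05. In the motor neuron list 0 of 15 tested genes passed and 2 had an unadjusted p under 0.05, and with so few genes a count of 0 is near that background. Of the 25 highest genes 1 did, Mbp. Mbp was 1.13 ± 0.41 higher at 120 than at 60 days (limma adjusted p = 0.0476), and 3 further probe sets of 12.76 to 13.46 mean level differed by 1.31 to 2.43. That call was fragile: it held in 7 of 27 other settings, in which the limma adjusted p ran between 0.00344 and 0.153. Under quantile normalization the Mbp difference was 0.89 (limma adjusted p = 0.145). In the oligodendrocyte list 4 of 12 tested genes passed: Mbp, Cnp, Mobp, a myelin protein, and Sox10, a lineage transcription factor, of which another probe set passed in the opposite direction. Cnp had 1163, 1273 and 1222 at 60 days, 1211, 1641 and 725 at 90 days, then 2840, 4273 and 5467 at 120 days, a difference of 1.73 ± 0.34 (limma adjusted p = 0.00263). The median difference of 120 minus 60 days was 1.01 over the 12 tested oligodendrocyte genes, beside -0.23 over all genes tested. Under quantile normalization the 2 medians were 0.93 and 0.003, and with arrays centred 1.51 and 0.27.

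In the microglial list 6 of 16 tested genes passed, beside 5.45% of all genes, and not all ran the same way. Ctss had 213, 176 and 151 at 60 days, 349, 568 and 298 at 90 days, then 1288, 611 and 537 at 120 days. Laptm5 and Tyrobp, an adaptor of immune receptors, were also highest at 120 days, Csf1r and C1qb were lowest at 90 days, and C1qa was lowest at 120 days (log2 difference of -2.09 ± 0.48 from 60 days). Of pan-neuronal genes 4 of 23 passed. Eno2, Thy1 and Map2 were higher at 120 than at 60 days and Ina was lower. Thy1 had 1016, 1146 and 1222 at 60 days, 1146, 1153 and 1256 at 90 days, then 3135, 2231 and 1710 at 120 days. Eno2 was 2.31 ± 0.42 higher at 120 days, with 5991 in control replicate 1 against 1196 and 1189 in the other 2, and without that array the difference was 1.53.

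Iron and metal binding genes and the general machinery also held calls, beside 5.45% of all genes. Of the 4 metallothionein and ferritin genes 3 passed. Fth1, the ferritin heavy chain, had 1927, 1337 and 3334 at 60 days, 8435, 5834 and 3569 at 90 days, then 12576, 11277 and 18755 at 120 days, and differed by 2.76 ± 0.38 between 120 and 60 days (limma adjusted p = 0.000556). The ages did not overlap for Fth1. Of oxidative phosphorylation genes 13 of 82 passed, 12 of them higher at 120 than at 60 days. Atp5h was among these 12 (difference of 1.41), and Cox7a2l, a respiratory chain assembly factor, had the smallest p (2.60 ± 0.35). Cox4i2, a subunit isoform, was the exception with a difference of -1.81 ± 0.51. Over the 82 tested genes the median difference was 0.155, with 48 above 0, beside -0.23 over all genes tested. Under quantile normalization the 2 medians were 0.074 and 0.003.

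Beside the 5.45% of all genes, of chaperones 9 of 59 passed, of the ubiquitin and proteasome list 6 of 38, of ribosomal protein genes 7 of 42 and of axonal transport genes 4 of 26. The heat-inducible co-chaperone Dnajb1 had 394, 398 and 257 at 60 days, 1505, 1354 and 608 at 90 days, then 2616, 2137 and 1661 at 120 days. Eef1b2, an elongation factor subunit, had 232, 188 and 112 at 60 days, 769, 1256 and 764 at 90 days, then 1959, 896 and 792 at 120 days. In both the arrays at 60 days lay below all others, and the later ages overlapped in Eef1b2 and not in Dnajb1. Dync1li1, a dynein chain, had a difference of -3.48 ± 0.84 between 120 and 60 days. Of 71 genes named from the age test, 16 passed in each of 27 other settings, among them Rpn1, Mkrn1, Ndrg1, Selenoh, Etnk1, Fth1, Cox7a2l, Dnajb1, Eef1b2, Ctss and Laptm5.

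**Figure D5:**
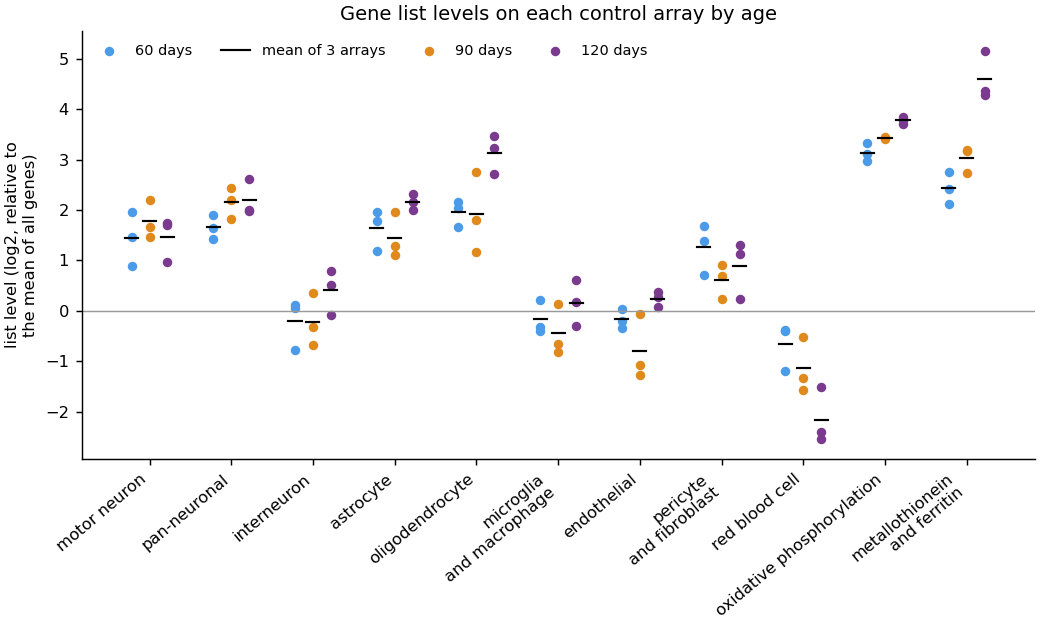
List level on each control array by age: the mean log2 signal of a list's measured genes minus the mean over all genes, 1 point per array and a bar for the mean of 3. Oligodendrocyte levels average 1.96, 1.91 and 3.13 at 60, 90 and 120 days, metallothionein and ferritin levels 2.43, 3.03 and 4.60, and motor neuron levels 1.43, 1.78 and 1.47.

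Against the rest of the series the control transcriptome was much the same in rank. Across 12393 genes the mean levels of the G93A and control arrays correlated at r = 0.965 (Spearman 0.958), as a description over genes that share probes and arrays of 1 platform. Of the 100 highest control genes 94 were among the first 100 on G93A arrays. Over all ages, 2 of 16566 probe sets passed the test of G93A minus control as higher in G93A (0.0121%), Tyrobp and Lyz1, and 0 as lower (0%), with 1282 at an unadjusted p under 0.05. A change of 1 on the log2 scale was recovered for 50% of simulated probe sets in that comparison.

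Tyrobp had 106, 159 and 126 in G93A at 60 days, against 10.5, 17.2 and 33.8 in controls. At 90 days it had 33.6, 127 and 90.8 in G93A, against 53.8, 15.9 and 23.1 in controls. At 120 days it had 983, 1239 and 796 in G93A, against 97.5, 152 and 353 in controls. The groups overlapped at 90 days alone, and the mean difference was 2.25 ± 0.34 on the log2 scale (limma adjusted p = 0.0100, between 0.00198 and 0.212 in 26 other settings). Lyz1, a lysozyme whose _x_at probe set may also bind its near-identical relative, differed by 2.57 ± 0.41 (limma adjusted p = 0.0127, between 0.000823 and 1.00 in those settings). The summed signal of the 19 microglial genes was 2409 to 26235 in G93A and 1855 to 8582 in controls, with Tmem119 above the median on 0 control arrays, and its part in these results was not tested. Without control replicate 2 at 90 days 16 probe sets passed, and with the Gapdh difference as a covariate 0 did.

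The 25 highest control genes had a median G93A minus control difference of -0.47, with 24 of 25 below 0, beside a median of -0.004 over all genes tested. None of the 25 passed the test, and the list was chosen on its control values, which favours this direction. Under quantile normalization the median was -0.07, with 18 of 25 below 0. The hybridization controls averaged 7.75 to 11.99 on G93A arrays (median 9.992) and 8.40 to 11.99 on control arrays (median 10.985). Without the lowest array of each genotype the median difference of the 25 genes was -0.44. That removal kept the G93A arrays at 90 days, whose hybridization controls averaged 8.99, 9.33 and 8.96. The part of this level in the difference was not tested. Nefl had 6044, 16204 and 15297 in G93A at 60 days, against 22030, 25382 and 17125 in controls. At 90 days it had 10527, 11328 and 11639 in G93A, against 24119, 9264 and 24856 in controls, and at 120 days 10625, 7746 and 14872 in G93A, against 13680, 26846 and 12990 in controls. The mean difference for Nefl was -0.74 ± 0.28 and did not pass (limma adjusted p = 0.548).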

How the data were processed

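One array was hybridized per animal. The authors deposited 1 intensity per probe set and array on a linear scale. Per the submitters' processing notes the software was MAS5, with no version or settings given there. The arrays were checked to be scaled alike, with a mean of 98.7 to 99.5 on control arrays once the highest and lowest values were trimmed. Array medians were not alike. Control medians were 57.95, 62.6 and 64.0 at 60 days, 57.85, 45.4 and 55.4 at 90 days, then 37.05, 46.4 and 47.8 at 120 days. The table holds 22690 probe sets: 64 controls, 20380 with 1 gene symbol, 691 with several and 1555 with none in the platform annotation. Of the 20380, 20351 matched a RefSeq table by Entrez identifier and 0 symbols changed.

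Values under 1 (965 of 408420, 0.236%) were set to 1 and log2 was taken, with no further normalization. Ranks, SDs and counts were computed in Python 3.11.15 over the 9 control arrays. A list's background is the same count over all genes. Tests used limma 3.58.1 in R 4.3.3 on probe sets above the array median on at least 3 of 18 arrays (16566): means of 6 groups over all 18 arrays, empirical Bayes with a trend, two-sided, 12 residual degrees of freedom, Benjamini-Hochberg adjustment over all 16566, threshold 0.05. The contrasts were the F test of age in controls and the mean over ages of G93A minus control. The script was tested on simulated data with known changes.

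Named genes are the 25 of highest mean, the 20 of smallest and 10 of largest SD among genes above the median on all 9 arrays, up to 6 members of highest level, 3 of smallest and 3 of largest SD per list, the 5 of smallest p per test, list members past the threshold and 15 fixed markers. Other members named (such as Aldh1l1, Tie1, Tmem119, Mog and Olig2) were chosen after their values were seen. The lists hold 10 cell types and 13 functions, and they share some genes. Members and lists were chosen with earlier results of these data known. Of 23 members and lists checked over the 9 controls, 0 held an outlying array by Dixon's test (critical value 0.493). This check did not cover every gene and array measure named above, so it does not exclude an outlying array in those.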

Additional observations from a re-analysis of the deposited data

How the results depend on the processing

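In this paragraph "kept" counts genes shared with the reported list. Of the 20 genes of smallest spread, 10 were kept under quantile normalization, 0 with arrays centred on their median, 8 with the mean over a gene's probe sets, 5 with the SD within ages, 0 on the G93A arrays, and 10 to 16 with 1 control array left out. Of the 25 highest genes, 14 were kept with cross-hybridizing probe sets as a last resort, 8 with the mean over probe sets and 23 to 25 with 1 array left out. Pericyte and fibroblast genes above the median on all arrays numbered 0 with the mean over probe sets and 7 on G93A arrays, endothelial genes 3 on G93A arrays and 1 to 2 with 1 array left out, and red blood cell genes 0 to 1. The age test called 329 probe sets with the Gapdh ratio as a covariate, 298 without the trend, 299 with the 9 control arrays alone, and 490 (without control replicate 3 at 60 days) to 928 with 1 array left out. G93A against control called 5 under quantile normalization, 1 with the hybridization-control covariate, 0 with the Gapdh covariate, 1 without the trend, and 0 (without G93A replicate 2 at 120 days) to 16 (without control replicate 2 at 90 days) with 1 array left out. The 120 minus 60 day difference changed sign for Acta2 (0.054) and Psma7 (0.28) with centred arrays, for Hsp90aa1 under quantile normalization (-0.28), and for Kif21a under quantile normalization (0.0076) and centred arrays (0.32). With 1 array left out Hsp90aa1 ran between -0.11 and 0.32 and Kif21a between -0.35 and 0.074. The cause was not tested. Same-numbered control arrays of different ages correlated at -0.10 to 0.07 in their deviations from the group means, and differently numbered ones at -0.12 to 0.15. No pairing by number was seen, though 9 same-numbered pairs cannot exclude one. With the replicate block the age test called 880 probe sets and the genotype test 2.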

Other observations

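In some lists most genes differed in 1 direction between G93A and control arrays. All 5 neurofilament and peripherin genes had a G93A minus control difference below 0, with a median of -0.35, and 0 of 5 passed limma's test at an adjusted p under 0.05, with 2 at an unadjusted p under 0.05. All 4 metallothionein and ferritin genes had a difference above 0, with a median of 0.68, and 0 of 4 passed, with 3 at an unadjusted p under 0.05. In the oligodendrocyte list 1 of 12 tested genes lay below 0 and the median was 0.45, and in the microglial list 2 of 16 did and the median was 0.79, with 1 gene past the test (Tyrobp). The median over all 10009 genes tested was -0.004. These lists were chosen with the differences known, and the directions were not tested.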
